A study of Mus musculus with 8 samples.

Results

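Divergent non-coding loci are places where an annotated RNA without a coding sequence starts close to the start of a protein-coding locus and is transcribed the other way. They were taken from the authors' merged annotation on mouse build mm9 as loci that hold a reference transcript, carry no coding-sequence identifier and have at least 200 exonic nucleotides (nt). Their outermost 5′ end had to lie within 2000 nt of the 5′ end of a coding locus on the opposite strand, with both transcribed away from each other. Of 31020 loci in the series, 320 met the rule, and they had 318 different nearest coding partners, since 4 of them shared a partner. The rule used positions and identifiers of the merged annotation only, and no count or FPKM. Where the authors' assembly had added isoforms, the ends and length of a locus can come from these. RNA came from macrophages that had been differentiated from the bone marrow of C57BL/6 mice. The compared groups were 4 libraries of macrophages given interleukin-4 (IL-4), whose dose and duration the labels leave out, and 4 libraries of untreated macrophages. They are described as biological replicates, without a statement that each stands for 1 animal, so every p-value here reflects only how much these libraries vary.

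Many mammalian promoters are transcribed in both directions, and the RNA made upstream and antisense of a coding gene is often non-coding, low in abundance and short-lived. Some such RNAs are spliced, stable and annotated as long non-coding RNAs, and others are the products of separate genes that merely share a promoter region with a coding neighbour. IL-4 is a cytokine of type 2 immunity that signals through STAT6 and moves macrophages into the state often called alternative activation. The comparison with the coding partner asks how far RNA on both sides of one promoter region moved together after the cytokine.

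The files do not pair their loci with gene names, and the UCSC transcript identifiers they carry occurred in none of the reference tables at hand, so loci are given by identifier and mm9 position, and macrophage markers could not be looked up. Libraries held 23071022 to 27783417 counts. Loci on the Y chromosome had 5525 counts in IL-4 replicate 4 and 5808 in untreated replicate 4, against 0 to 7 in the other libraries. Within the untreated group, replicate 1 stood farther from the others, with a chi-square per degree of freedom of 33.4 to 41.0 against 4.79 to 18.7 among the other three, and the pairs of IL-4 libraries ran from 6.5 to 34.7. Levels are given as CPM, counts scaled to the total of their library, and ± stands for the SD over the 4 libraries of a group. The fitted log2 fold changes use TMM scaling, and the median ratio of mean CPM over all tested loci was 0.914, so a CPM ratio lies slightly below the fitted change. In bulk RNA, fewer cells of a type and less RNA per cell cannot be told apart.

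The 320 loci lay on 20 chromosomes, 158 on the plus and 162 on the minus strand. The 5′ ends of locus and partner were 1 to 1904 nt apart with a median of 159 nt, and 99 pairs lay within 100 nt, 196 within 200 nt and 264 within 500 nt. Most loci were spliced: 177 had 3 or more exons in the transcript with the most exons, 118 had 2 and 25 had a single exon, with up to 16 exons. Their exonic length ran from 232 to 22840 nt with a median of 1672 nt. In 56 loci the authors' assembly had added isoforms that are in no reference transcript. How the counter treated strand is not stated. Exonic nt were shared with another locus at 63 of the loci, and how reads from such overlaps were counted is not known. Some loci or partners with large shared parts had few or no counts despite a measurable FPKM, as given below. The span of 78 overlapped a coding locus.

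At the edges of the rule, the farthest member, XLOC_022290 on chromosome 6, lay 1904 nt from its partner and had 0 counts in both groups. The nearest locus outside, XLOC_026815 on chromosome 8, lay 2030 nt away and averaged 1.42 CPM with IL-4 and 2.12 CPM in untreated cells. The shortest member, XLOC_017678 on chromosome 3, had 232 exonic nt and 7 counts with IL-4 against 13 counts in untreated cells. The longest divergent locus under the length limit, XLOC_011795 on chromosome 17, had 183 exonic nt and 9 counts with IL-4 against 11 counts in untreated cells.

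Divergent non-coding loci were sparse in these libraries. No counts were found at 76 of the 320 in any library, 139 had counts but did not pass edgeR's expression filter, and 105 were tested. The median of the mean level was 1.41 CPM over the 105 tested loci and 17.0 CPM over all 13761 tested loci of the series. A few loci held most of the reads: all 320 together took 0.52% to 0.885% of a library's counts, and without the single most abundant one 0.048% to 0.0512% with IL-4 and 0.0516% to 0.0622% in untreated cells. The filter asks for reads in at least 4 libraries, so a locus can pass through 1 group alone. Among the tested loci, 3 had under 10 counts in every IL-4 library (XLOC_002696, XLOC_004344 and XLOC_028393). Another 2 had under 10 counts in every untreated library (XLOC_019791 and XLOC_026004). XLOC_002778, with 3 to 10 counts in each untreated library, also passed through the IL-4 group alone. These loci were tested because of their high group, so lack of overlap is no separate support for a change there.

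With IL-4, 10 of the 105 tested loci rose and 29 fell (edgeR's quasi-likelihood test, Benjamini-Hochberg adjusted p under 0.05). Over all 13761 tested loci the same test called 51.8%, with 25.6% higher and 26.2% lower, so 9.52% higher lies below the share over all loci and 27.6% lower lies near it. Rises of 2-fold or more were called for 4 loci (3.81%, against 8.03% of all tested loci) and falls of 2-fold or more for 11 (10.5%, against 8.04%). The median log2 fold change of the tested divergent loci was -0.23, against -0.02 over all tested loci and 0.02 over their 226 tested coding partners, of which 65 rose and 58 fell. The other annotated non-coding loci had a median of -0.22 over 551 tested, with 69 higher and 161 lower, so the lean towards lower values was present there too. The difference between these classes was not tested.

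Calls were counted by level. Of 86 divergent loci with a mean under 5 CPM, 27 were called (31.4%), against 46% of all tested loci at that level, and 12 of the 19 at 5 CPM or more (63.2%), against 54.5%. The libraries of the IL-4 and untreated groups did not overlap in CPM at 38 of the 105 loci (36.2%), against 50.2% of all tested loci. Tested against a change of 1.5-fold, 3 loci were higher and 10 lower, or 12.4%, against 17.9% of all tested loci (edgeR's glmTreat). Single-exon loci gave 1 higher and 4 lower of 12 tested, 2-exon loci gave 4 and 9 of 41, and loci with 3 or more exons gave 5 and 16 of 52. Without both replicate 4 libraries, 8 loci were higher and 24 lower.

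XLOC_026004 (reference transcript uc009jad.1, chr7:113951385-113957616, minus strand, 2 exons) had the largest fitted rise. It had 0.851, 1.22, 1.84 and 0.739 CPM in the IL-4 libraries, against 0 counts in each of the 4 untreated libraries. All 120 of its counts were therefore in the IL-4 group. With 3 counts over the untreated group as the limit that 0 counts allow, it was at least 37.7-fold higher with IL-4. The adjusted p of 0.0001002 in edgeR tests for any change and not for that bound. The locus passed the filter through the IL-4 group alone. Its coding partner XLOC_024751 (chr7:113957643-113964223) starts 27 nt away and did not pass the filter, with 3 counts with IL-4 and 0 in untreated cells. The non-coding side of this promoter region thus carried nearly all of the reads of the pair.

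Locus and partner rose together at XLOC_023306 and XLOC_019791, which had the next largest fitted rises. XLOC_023306 (uc009ddm.1, chr6:108607039-108609531, minus strand, a single exon) had 1.08, 0.792, 1.29 and 0.776 CPM with IL-4, against 0.242, 0.450, 0.217 and 0.584 CPM in untreated cells. All IL-4 libraries lay above all untreated ones. It was 2.79-fold higher, or 1.48 ± 0.32 on the log2 scale (SE; edgeR, adjusted p = 0.002772). Its partner XLOC_022501 (chr6:108610557-108617882), with a start 1026 nt away, averaged 235.5 ± 31.8 CPM with IL-4 and 35.5 ± 7.51 CPM in untreated cells (SD, n = 4 each), 7.16-fold higher (edgeR, adjusted p = 5.696e-08). At XLOC_019791 (uc008uvv.1, chr4:128726541-128735227, minus strand, 2 exons) the IL-4 libraries had 0.929, 0.612, 0.668 and 0.739 CPM and the untreated libraries 0.323, 0.262, 0.303 and 0.250 CPM. The groups did not overlap, and the log2 fold change was 1.46 (edgeR, SE 0.25, adjusted p = 0.000476). With 6 to 8 counts in each untreated library, this locus passed the filter through the IL-4 group alone. The partner XLOC_018892 (chr4:128735315-128764787), 88 nt away, averaged 321.2 ± 26.8 CPM with IL-4 and 89.4 ± 3.70 CPM in untreated cells, a log2 fold change of 1.95 (edgeR, SE 0.07, adjusted p = 8.437e-09). The coding locus past the 3′ end of XLOC_019791, 35080 nt away, also rose, by 1.89 on the log2 scale (edgeR, adjusted p = 9.83e-09). The one past XLOC_023306, 105875 nt away, fell by 0.29 (edgeR, adjusted p = 0.01727).

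At XLOC_027331 and XLOC_020422 the non-coding RNA rose by more than its partner. XLOC_027331 (uc009lqn.1, chr8:47799160-47824933, minus strand, 3 exons) had 12.7, 14.6, 13.1 and 12.9 CPM with IL-4, against 5.93, 8.62, 8.41 and 9.52 CPM in untreated cells, and the groups did not overlap. Its log2 fold change was 0.83 (edgeR, SE 0.13, adjusted p = 0.0003). The partner XLOC_026653 (chr8:47825095-47943213), 162 nt away, averaged 51.2 ± 9.65 CPM with IL-4 and 51.0 ± 11.6 CPM in untreated cells (edgeR, adjusted p = 0.5724). XLOC_020422 (uc008xkj.1, chr5:52581912-52637135, plus strand, 6 exons) had 5.19, 5.62, 5.47 and 5.99 CPM with IL-4, against 2.82, 3.45, 3.99 and 3.34 CPM in untreated cells. Again no untreated library reached the lowest IL-4 library, and the log2 fold change was 0.82 (edgeR, SE 0.12, adjusted p = 0.0002162). Its partner XLOC_021181 (chr5:52541448-52581758), 154 nt away, had a log2 fold change of 0.19 (edgeR, adjusted p = 0.03906). That partner's call was lost without IL-4 replicate 2, 3 or 4 or untreated replicate 1, 3 or 4, one at a time, with adjusted p from 0.05161 to 0.09276.

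The other 5 risers differed in size and in overlap. XLOC_002778 (uc007gji.1, chr10:81507389-81510783) averaged 0.549 ± 0.110 CPM with IL-4 and 0.259 ± 0.128 CPM in untreated cells, 2.21-fold higher without overlap between the groups (edgeR, adjusted p = 0.01656). It held 3 to 10 counts in each untreated library and passed the filter through the IL-4 group alone. Its call was lost without both replicate 4 libraries (0.06533). XLOC_000888 (uc007bgw.1, chr1:64726445-64737233) averaged 0.970 ± 0.155 CPM with IL-4 and 0.589 ± 0.268 CPM in untreated cells, a log2 fold change of 0.83 (edgeR, adjusted p = 0.03145). Its groups overlapped, and the call was lost without IL-4 replicate 2 or 3, without untreated replicate 1, 2 or 4, and without both replicate 4 libraries, with adjusted p from 0.05231 to 0.09586. XLOC_010606 (uc007zbz.1, chr16:35966839-35983316), whose span overlaps a coding locus, averaged 4.32 ± 1.04 CPM with IL-4 and 2.76 ± 0.588 CPM in untreated cells, and its groups overlapped (edgeR, adjusted p = 0.01023). The authors' FPKM of that locus is listed at 0 in both groups, and its call was lost without both replicate 4 libraries (edgeR, adjusted p = 0.07018). XLOC_019903 (uc012dnp.1, chr4:138730368-138748715) averaged 9.45 ± 0.942 CPM with IL-4 and 8.22 ± 0.664 CPM in untreated cells, with overlap between the groups. Its adjusted p of 0.02183 in edgeR became 0.0544 without IL-4 replicate 3 and 0.07119 without untreated replicate 2. The fifth, XLOC_005327 (uc007nkz.1, chr12:40927727-40951825), is the longest of the 320 with 22840 exonic nt, a length given by an assembled form with 3 exons. It averaged 55.9 ± 3.56 CPM with IL-4 and 45.3 ± 7.12 CPM in untreated cells (edgeR, adjusted p = 0.004636). Of its exonic nt, 11.7% are shared with another locus, and its partner XLOC_005828, 1825 nt away, had about 0.1 CPM in both groups and was not tested.

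**Figure D1:**
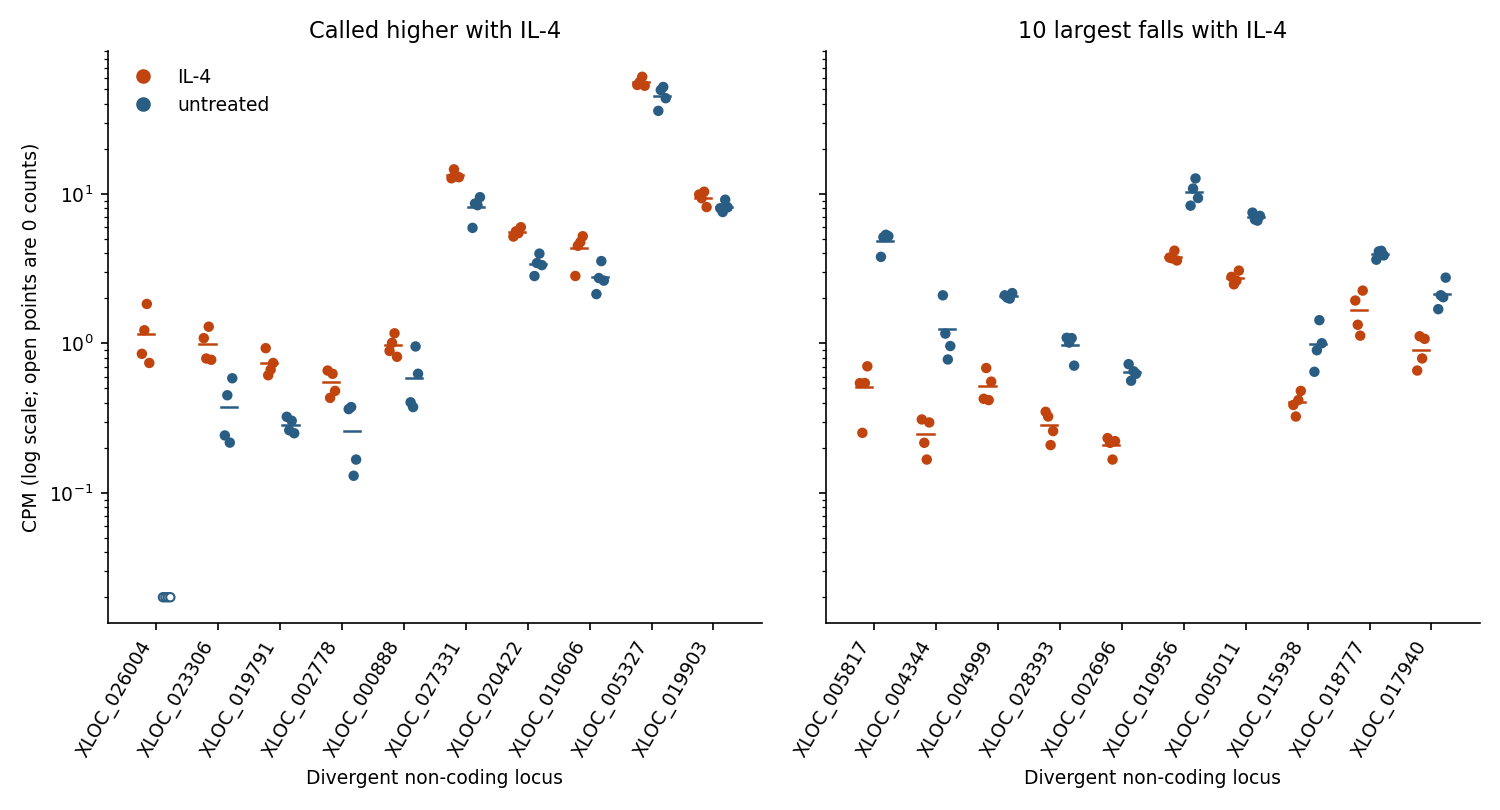
CPM of single libraries on a log axis for the 10 divergent non-coding loci called higher with IL-4 (left) and the 10 with the largest called falls (right). Orange points are IL-4 libraries, blue points are untreated libraries, short lines are group means and open points at the bottom are libraries with 0 counts. The untreated libraries of XLOC_026004 all sit at 0, and the 4 IL-4 libraries of XLOC_005817 lie between 0.252 and 0.702 CPM, below 3.79 to 5.33 CPM in untreated cells.

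The largest falls exceeded the largest rises among the loci with reads in both groups. XLOC_005817 (uc007nim.1, chr12:33796576-33832462, minus strand, 9 exons) fell most, with 0.542, 0.252, 0.542 and 0.702 CPM with IL-4 against 3.79, 5.13, 5.33 and 5.22 CPM in untreated cells. The groups were far apart. It was 8.82-fold lower, or -3.14 on the log2 scale (edgeR, SE 0.24, adjusted p = 1.216e-06). The partner XLOC_005307 (chr12:33832522-34061539) starts 60 nt away and averaged 26.9 ± 5.64 CPM with IL-4 and 56.1 ± 7.92 CPM in untreated cells, 1.94-fold lower (edgeR, adjusted p = 0.0001684). At XLOC_004344 (uc007iwk.1, chr11:53378140-53380815, minus strand, 2 exons) the IL-4 libraries had 0.310, 0.216, 0.167 and 0.296 CPM and the untreated libraries 2.1, 1.16, 0.780 and 0.960 CPM. Every IL-4 library was below every untreated one, and the locus was 4.63-fold lower (edgeR, adjusted p = 0.0006053). With 4 to 8 counts in each IL-4 library, it passed the filter through the untreated group alone. Its partner XLOC_003447 (chr11:53380881-53417746), 66 nt away, averaged 33.1 ± 4.36 CPM with IL-4 and 79.9 ± 12.8 CPM in untreated cells, 2.24-fold lower (edgeR, adjusted p = 2.099e-05).

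At 3 other loci the non-coding RNA fell beside a partner with a log2 fold change of -0.21 or closer to 0. XLOC_004999 (uc007mqp.1, chr11:119322515-119352549, minus strand, 4 exons) had 0.426, 0.684, 0.417 and 0.555 CPM with IL-4, against 2.1, 2.02, 1.99 and 2.17 CPM in untreated cells. The groups did not overlap, and it was 3.65-fold lower (edgeR, adjusted p = 1.521e-05). Of its exonic nt, 19.9% are shared with another locus, and its span overlaps a coding locus. The partner XLOC_004107 (chr11:119352563-119372868), with a start only 14 nt away, averaged 10.6 ± 0.563 CPM with IL-4 and 12.0 ± 0.194 CPM in untreated cells, a log2 fold change of -0.07 (edgeR, adjusted p = 0.4511). XLOC_028393 (uc009qsg.1, chr9:75257991-75265516) averaged 0.285 ± 0.0634 CPM with IL-4 and 0.974 ± 0.180 CPM in untreated cells, a log2 fold change of -1.64 (edgeR, SE 0.25, adjusted p = 0.0002442). This locus held 5 to 9 counts in each IL-4 library and passed the filter through the untreated group alone. Its partner XLOC_029267, 170 nt away, had a log2 fold change of -0.18 (edgeR, adjusted p = 0.04247), and that call was lost with RLE scaling (0.06415) and on leaving out any 1 library except untreated replicate 1, with adjusted p from 0.05256 to 0.1529. XLOC_002696 (uc007fvi.2, chr10:76720518-76721968) averaged 0.209 ± 0.0290 CPM with IL-4 and 0.641 ± 0.0677 CPM in untreated cells (edgeR, adjusted p = 0.0004928). It too passed only through the untreated group, with 4 to 6 counts in each IL-4 library. Its partner XLOC_001981, 77 nt away, had a log2 fold change of -0.21 (edgeR, adjusted p = 0.05808), with 0.03352 under the replicate block, 0.03888 without untreated replicate 3, 0.04936 without untreated replicate 4 and 0.03915 without both replicate 4 libraries. The coding locus past the 3′ end fell at XLOC_004999 (log2 fold change -2.75, edgeR, adjusted p = 5.026e-07, 80125 nt away). The one past XLOC_002696 fell too (-2.47, adjusted p = 4.704e-05, 91219 nt away). That past XLOC_028393 rose by 0.23 (edgeR, adjusted p = 0.027). These neighbours were added after the values were seen.

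Among the remaining loci of the 10 largest falls, 3 had a partner that fell too. XLOC_010956 (uc012ajw.1, chr17:10512323-10523657, plus strand, a single exon in each transcript and 11335 exonic nt) had 3.75, 3.71, 4.17 and 3.59 CPM with IL-4, against 8.35, 10.9, 12.7 and 9.39 CPM in untreated cells. The reference transcript itself covers only 1223 nt (chr17:10512784-10514006). The outer ends of the locus, from which the distance below is taken, come from an assembled form. The groups were well apart, with a log2 fold change of -1.33 (edgeR, SE 0.13, adjusted p = 7.862e-06). Its partner XLOC_011701 (chr17:10392565-10512226), 97 nt away, averaged 359 ± 20.8 CPM with IL-4 and 565.5 ± 66.9 CPM in untreated cells (edgeR, adjusted p = 0.00031). XLOC_005011 (uc011yix.1, chr11:120083475-120093253) averaged 2.74 ± 0.251 CPM with IL-4 and 7.0 ± 0.396 CPM in untreated cells (edgeR, adjusted p = 6.517e-06), beside a partner with 2.05 ± 0.728 CPM with IL-4 and 4.24 ± 0.416 CPM in untreated cells. XLOC_018777 (uc012diy.1, chr4:114581876-114594577) averaged 1.66 ± 0.524 CPM with IL-4 and 3.95 ± 0.246 CPM in untreated cells (edgeR, adjusted p = 0.0006788), and its partner XLOC_019658 moved by nearly the same log2 amount, -1.17 against -1.13. For XLOC_015938 (uc008kat.1, chr2:71352401-71365976), with 0.402 ± 0.0651 CPM with IL-4 and 0.994 ± 0.327 CPM in untreated cells, and XLOC_017940 (uc008qji.1, chr3:95111594-95119039), with 0.910 ± 0.221 CPM with IL-4 and 2.15 ± 0.443 CPM in untreated cells, the partner had 0 counts. The partner of XLOC_017940, XLOC_017379, shares 100% of its exonic nt with another locus, and its authors' FPKM was 72.0 ± 3.58 with IL-4 and 70.5 ± 2.02 in untreated cells. Its count of 0 is therefore not a level of 0, and among the 41 partners with 0 counts, 3 had an FPKM of at least 1.

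The most abundant divergent non-coding locus outweighed the rest together. XLOC_019308 (uc008spx.1, chr4:43505657-43505931, minus strand) is a single exon of 275 nt and had 8356, 4953, 5173 and 4716 CPM with IL-4, against 7570, 7922, 7497 and 7954 CPM in untreated cells. IL-4 replicate 1 lay above all untreated libraries and the other 3 IL-4 libraries lay below them. The log2 fold change was -0.31 (edgeR, SE 0.16, adjusted p = 0.1196), with -0.52 and 0.0005367 without IL-4 replicate 1, and -0.35 and 0.0288 under the replicate block. Its partner XLOC_018518 (chr4:43506233-43509616), 302 nt away, averaged 5.43 ± 0.977 CPM with IL-4 and 7.24 ± 0.686 CPM in untreated cells, with an adjusted p of 0.09697 in edgeR, 0.03181 under the replicate block and 0.01847 without IL-4 replicate 4. Of that partner's exonic nt, 68.98% are shared with another locus. The second, XLOC_006147 (uc011yrk.1, chr12:106269287-106269559), is also a single short exon of 273 nt and averaged 146.1 ± 10.3 CPM with IL-4 and 148.3 ± 15.7 CPM in untreated cells (edgeR, adjusted p = 0.3834). It lies within the span of a 2-exon transcript of another member, XLOC_006146 (chr12:106268827-106270489), without shared exonic nt. Whether XLOC_006147 has a start of its own was not tested. Its partner XLOC_005597, 1340 nt away, rose by 0.50 on the log2 scale (edgeR, adjusted p = 0.0001722). XLOC_025840 (uc012fpb.1, chr7:99879083-99889973) averaged 24.5 ± 3.95 CPM with IL-4 and 41.1 ± 11.4 CPM in untreated cells, with overlapping groups. Its adjusted p in edgeR was 0.01391, with 0.05088 without IL-4 replicate 1 and 0.05392 without both replicate 4 libraries. XLOC_004735 (uc007leh.1, chr11:97505238-97521681) averaged 18.3 ± 2.33 CPM with IL-4 and 24.9 ± 2.20 CPM in untreated cells (edgeR, adjusted p = 0.01947, and 0.05396 without IL-4 replicate 3), and its partner XLOC_003865 fell by 0.61 on the log2 scale (edgeR, adjusted p = 9.22e-05). That partner is a composite locus, with reference transcripts in 2 groups that do not overlap, so its change may not be that of the nearer group.

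Per length, the non-coding side was usually the weaker one. FPKM, the authors' count of fragments per kilobase scaled to library size, was summed over the isoforms of each locus for the 95 pairs in which both loci were tested. The median FPKM of the non-coding loci was 0.352 with IL-4 and 0.434 in untreated cells. Their partners had a median of 9.38 with IL-4 and 8.65 in untreated cells. The partner exceeded the non-coding locus by a median factor of 17.4 with IL-4 and 14.5 in untreated cells. The non-coding locus was below its partner in 89 pairs with IL-4 and in 86 pairs in untreated cells. The 2 short single-exon loci were the extreme of the other kind, with a mean FPKM of 41921 with IL-4 and 52545 in untreated cells for XLOC_019308, and of 1069 with IL-4 and 1019 in untreated cells for XLOC_006147. At XLOC_026486 and XLOC_029499 the order of the pair differed between the groups. With IL-4, XLOC_026486 had an FPKM of 0.177 beside 0.282 for its partner, and in untreated cells 0.217 beside 0.0303. XLOC_029499 had 0.103 beside 0.438 with IL-4 and 0.116 beside 0.0729 in untreated cells.

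**Figure D2:**
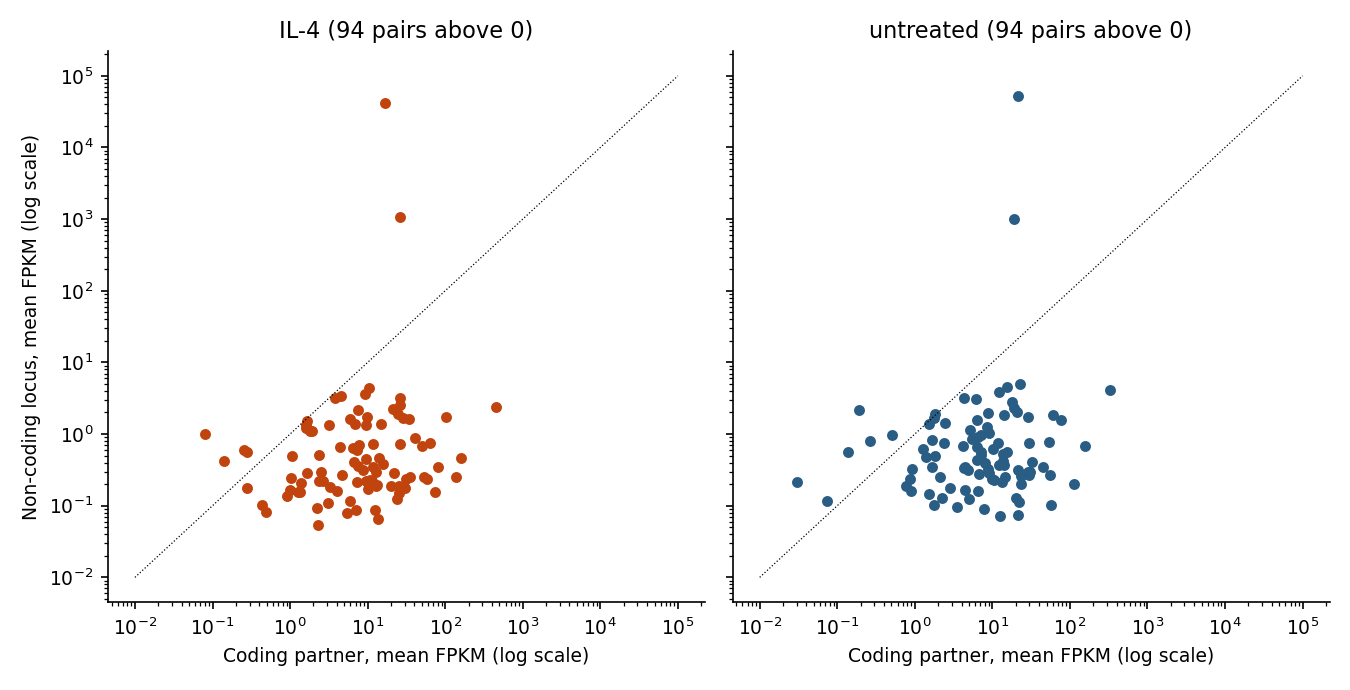
Mean FPKM of the divergent non-coding locus against that of its coding partner, both on log axes, with IL-4 (left) and in untreated cells (right). Each point is 1 of the 94 pairs with an FPKM above 0 for both loci, and the dotted line marks equal levels. Most points lie below the line in both groups, and the 2 points far above it are the short single-exon loci XLOC_019308 and XLOC_006147.

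A pair's members were more often called in the same direction than in opposite ones. In 17 of the 95 pairs (17.9%) both loci were called and moved the same way, 6 of them higher and 11 lower with IL-4. In 4 pairs (4.21%) both were called and moved apart. Divergent pairs of 2 coding loci, which share the geometry, had 18.5% and 5.68% of 493 pairs in the same classes, so these shares lie close to that background. In 8 pairs the non-coding locus fell and in 2 it rose beside a partner that was not called. In 17 pairs the partner rose and in 14 it fell beside a non-coding locus that was not called, and 33 pairs had no call on either side. Another 10 tested non-coding loci had an untested partner. Single libraries bear on these counts: 11 pairs moved the same way without IL-4 replicate 3, and 2 moved apart without IL-4 replicate 3, IL-4 replicate 4, untreated replicate 3 or untreated replicate 4, each left out alone.

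Ordered by the partner's call, the non-coding side followed in part. Beside the 27 partners that rose, the non-coding loci had a median log2 fold change of 0.04 (range -0.76 to 1.48), and 13 of them lay below 0. Beside the 43 partners with no call the median was -0.19 (range -1.87 to 1.15), and 35 lay below 0. Beside the 25 partners that fell the median was -0.56 (range -3.14 to 0.28), and 22 lay below 0. The partners' own medians were 0.48, 0.04 and -0.55 in that order. Across the 95 pairs the log2 fold changes of locus and partner had a Spearman rho of 0.47 and a Pearson r of 0.49, given as a description because all pairs share the same 8 libraries. The 493 pairs of coding loci had a Spearman rho of 0.24.

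**Figure D3:**
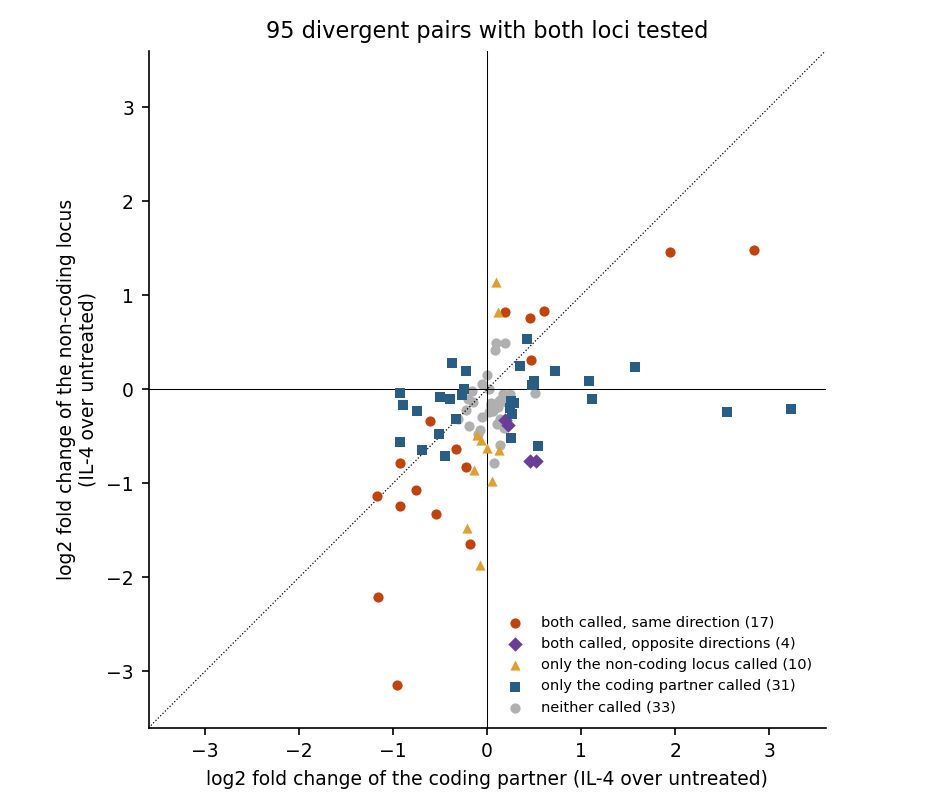
Fitted log2 fold change (IL-4 over untreated) of the divergent non-coding locus against that of its coding partner for the 95 pairs with both loci tested. Colours and shapes give the edgeR calls, and the dotted line marks equal changes. The 17 pairs called in the same direction fill the lower left and upper right, and 2 partners with log2 fold changes of 3.23 and 2.56 sit at the right beside loci near 0.

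The neighbour on the other side gave another picture. For 63 of these loci a coding locus past the non-coding 3′ end was also tested, at a median distance of 32940 nt, a comparison added after the values were seen. A coding locus that overlaps the span of the non-coding locus was not taken as this neighbour. The log2 fold changes of locus and that neighbour had a Spearman rho of 0.07, against 0.49 between locus and divergent partner over the same 63 loci. Both were called in the same direction in 7 and in opposite directions in 7, against 13 and 0 with the divergent partner. The 4 pairs of the 95 that moved apart were not among these 63 loci. The fitted signs matched in 35 with the far neighbour and in 39 with the partner. The difference between both kinds of neighbour was not tested, and the distances differ.

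The 4 pairs that moved apart, which are named here after their values were seen, all had a falling non-coding locus and a rising partner. At XLOC_004115 (uc007msj.1, chr11:120210011-120215783, plus strand, 2 exons) the IL-4 libraries had 7.43, 5.4, 6.26 and 6.21 CPM and the untreated libraries 12.3, 10.4, 11.6 and 11.8 CPM. Its partner XLOC_005012 (chr11:120207004-120209798), 213 nt away, had 242, 249, 249 and 230 CPM with IL-4 against 213, 179, 197 and 173 CPM in untreated cells. Neither locus overlapped between the groups, with log2 fold changes of -0.76 (edgeR, SE 0.11, adjusted p = 0.0001828) and 0.45 (SE 0.07, adjusted p = 0.0003738). XLOC_002287 (uc007hcn.1, chr10:116387623-116400341, 4 exons) averaged 1.45 ± 0.114 CPM with IL-4 and 2.64 ± 0.266 CPM in untreated cells (edgeR, adjusted p = 0.001181). Its partner XLOC_002929, 165 nt away, averaged 8.60 CPM with IL-4 and 6.48 CPM in untreated cells (edgeR, adjusted p = 0.001129). These 2 pairs were called on both sides on leaving out any single library. XLOC_030629 on the X chromosome (uc009uaq.2) and XLOC_016711 on chromosome 2 (uc008odw.2) had log2 fold changes of -0.38 and -0.32 beside 0.22 and 0.19 for their partners. XLOC_030629 lost its call without IL-4 replicate 1 or 4 or untreated replicate 3 or 4 (edgeR, adjusted p from 0.05249 to 0.06439). XLOC_016711 kept its call only without IL-4 replicate 2 or untreated replicate 1 among the single libraries left out, with adjusted p from 0.06235 to 0.07666 for the others. The partner of XLOC_030629 lost its call without IL-4 replicate 3 (0.05537) and without untreated replicate 4 (0.07605).

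The change of the ratio within a pair was tested on log2 of the locus count over the partner count in each library, in which the library scaling cancels. Of the 95 pairs, 36 were called (37.9%), against 45% of 633 divergent pairs with at least 1 coding locus (limma, Benjamini-Hochberg adjusted p under 0.05). In 28 of the 36 the non-coding share of the pair was lower with IL-4, and in 8 it was higher. The ratio fell through a rising partner beside an uncalled locus in 11 pairs, through a falling locus beside an uncalled partner in 7, with both falling in 5, with locus and partner apart in 4 and with both rising in 1. The ratio rose beside a falling partner and an uncalled locus in 4 pairs, beside a rising locus and an uncalled partner in 2, and with both rising or both falling in 1 each. By distance, 19 of the 38 pairs within 100 nt were called, 6 of 28 between 100 and 200 nt, 6 of 17 up to 500 nt and 5 of 12 beyond. Without both replicate 4 libraries 22 pairs were called. With only pairs in which neither locus shares exonic nt with another locus, 24 of 59 were called.

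The largest falls of the ratio were in pairs whose partner rose and whose non-coding locus was not called. At XLOC_026486 (uc009kuf.1, chr8:8661801-8666117, plus strand, 2 exons) the IL-4 libraries had 1.16, 1.01, 0.834 and 1.40 CPM and the untreated libraries 0.928, 1.5, 1.56 and 1.54 CPM, with overlap. Its partner XLOC_027159 (chr8:8617439-8660773), 1028 nt away, had 2.32, 2.48, 2.09 and 1.07 CPM with IL-4 against 0.161, 0.262, 0.303 and 0.167 CPM in untreated cells, 9.39-fold higher (edgeR, adjusted p = 1.27e-05). This partner held 22 counts over the untreated group and passed the filter through the IL-4 group alone. The log2 ratio changed by -3.34 (SE 0.36, limma, adjusted p = 4.313e-06), and by -2.60 with 5 counts added in place of 0.5. XLOC_029499 (uc012hcq.1, chr9:121665758-121669061, 22.3% of exonic nt shared) averaged 0.443 ± 0.0976 CPM with IL-4 and 0.565 ± 0.159 CPM in untreated cells beside a partner, 90 nt away, with 4.44 ± 0.301 CPM with IL-4 and 0.808 ± 0.379 CPM in untreated cells. That ratio changed by -2.88 (SE 0.42, limma, adjusted p = 6.649e-05). Of all 7 tested partners called at least 2-fold higher, 2 stood beside a non-coding locus that rose and none beside one that fell, and both partners called at least 2-fold lower stood beside a locus that fell.

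The other 3 of the 5 largest falls of the ratio were at loci that fell by more than their partner. The change was -2.21 (SE 0.33, limma, adjusted p = 8.24e-05) at XLOC_005817, -1.80 (SE 0.22, adjusted p = 1.218e-05) at XLOC_004999 and -1.43 (SE 0.28, adjusted p = 0.0008315) at XLOC_028393. At XLOC_023306 the ratio also fell, by 1.32 on the log2 scale (limma, adjusted p = 0.009116), although both loci rose, and it was not called without both replicate 4 libraries (0.06135). Among the 5 largest rises of the ratio, XLOC_027331 and XLOC_020422 had the lowest adjusted p, with 0.72 (SE 0.14, limma, adjusted p = 0.0008057) and 0.63 (SE 0.12, adjusted p = 0.0007605). At XLOC_014796 (uc008kvk.1, chr2:91077303-91078514) and XLOC_003294 (uc007ici.1, chr11:17853973-17859581) the ratio rose by 0.89 and 0.67 beside a partner that fell. Their own means were 0.654 ± 0.152 CPM with IL-4 and 0.724 ± 0.190 CPM in untreated cells for XLOC_014796, and 0.960 ± 0.147 CPM with IL-4 and 0.849 ± 0.229 CPM in untreated cells for XLOC_003294. The ratio of XLOC_014796 (limma, adjusted p = 0.01442) was not called without both replicate 4 libraries (0.09273). Of the exonic nt of its partner XLOC_016153, 68.55% are shared with another locus. The ratio of XLOC_003294 (limma, adjusted p = 0.03762) was not called without IL-4 replicate 1, 2 or 3 or untreated replicate 3 or 4 (0.05164 to 0.1097), or without both replicate 4 libraries (0.1119). That of XLOC_002778, at 1.12 (0.04793), was called only without untreated replicate 1 or 2 among the single libraries left out, and the others gave 0.06225 to 0.1446, with 0.1588 without both replicate 4 libraries.

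**Figure D4:**
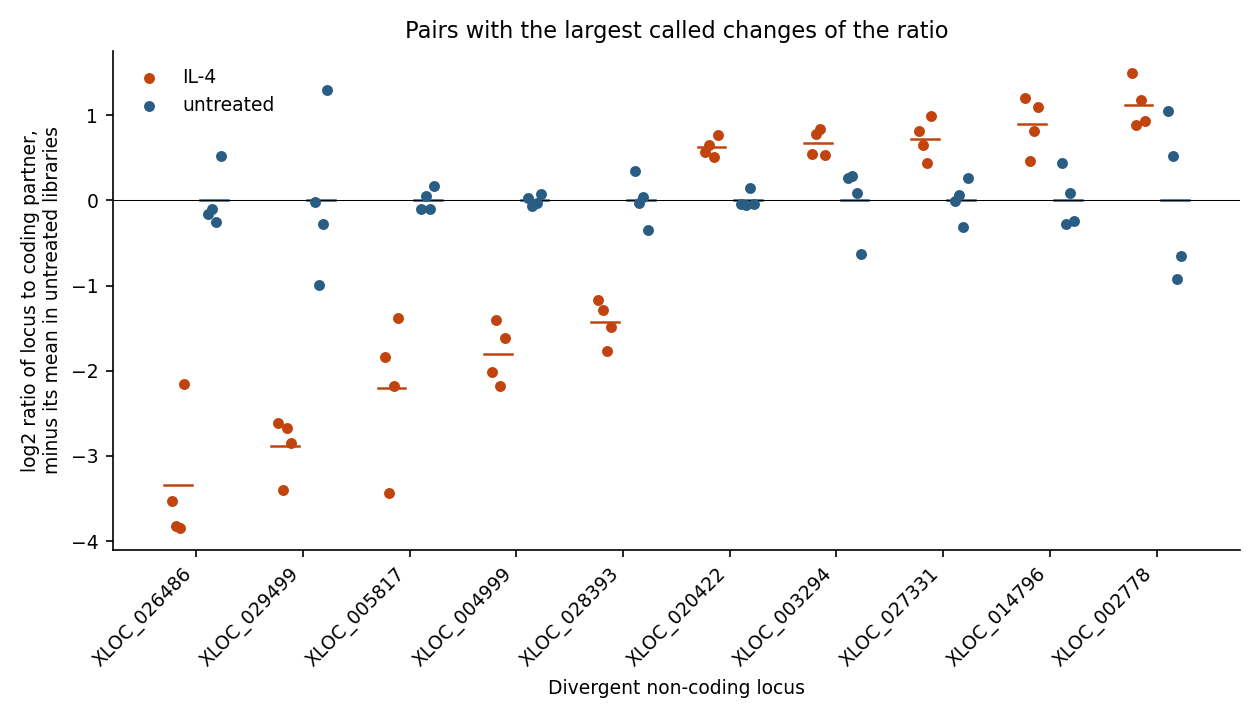
log2 ratio of the count of the divergent non-coding locus to that of its coding partner in single libraries, minus the mean of the untreated libraries of the pair, for the 5 largest called falls and the 5 largest called rises of the ratio. Orange points are IL-4 libraries, blue points are untreated libraries and short lines are group means. The IL-4 means run from -3.34 at XLOC_026486 to 1.12 at XLOC_002778, where the points of the groups overlap.

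Loci under the count filter were summed by the call of their partner, a grouping chosen after the values were seen and given without a test. The 139 of them that had reads held 1 to 95 counts over all libraries, with a median of 13. Beside the 39 whose partner rose, the summed level was 4.17 ± 0.396 CPM with IL-4 and 3.92 ± 0.536 CPM in untreated cells (SD, n = 4 each), and the groups overlapped. Beside the 33 whose partner fell it was 2.71 ± 0.470 CPM with IL-4 and 4.43 ± 0.192 CPM in untreated cells, and no IL-4 library reached the lowest untreated one. Beside the 61 with an uncalled partner it was 5.0 ± 0.398 CPM with IL-4 and 7.11 ± 0.641 CPM in untreated cells, also without overlap. The 82 with an untested partner summed to 1.18 ± 0.121 CPM with IL-4 and 1.48 ± 0.119 CPM in untreated cells, again without overlap. The largest single locus held 25.2% of the counts in the last sum and 7.78% to 11% in the others.

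**Figure D5:**
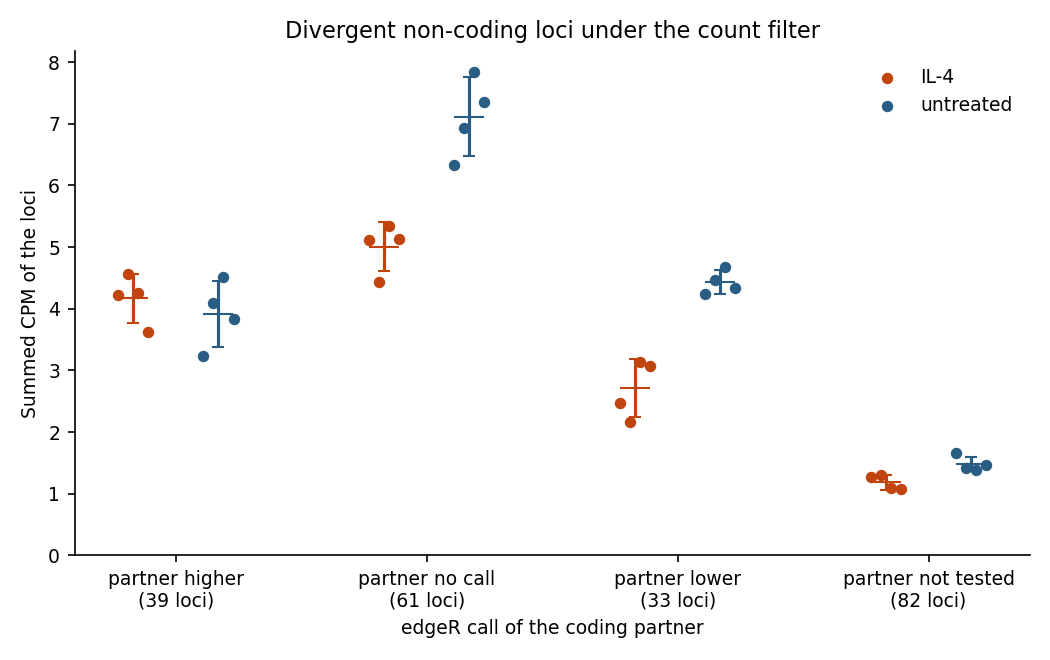
Summed CPM of the divergent non-coding loci that did not pass the count filter, by the edgeR call of their coding partner. Points are single libraries with IL-4 (orange) and untreated (blue), and bars are means with the SD over 4 libraries. The groups overlap beside the 39 partners called higher. The IL-4 libraries are lower beside the 33 partners called lower, and also beside the 61 uncalled and the 82 untested partners.

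The authors' isoform FPKM gave a second reading of the same libraries. Of 576 isoforms at the 320 loci, 26 from 23 loci reached the level that was tested, and 5 were called, all lower with IL-4 (limma on log2(FPKM + 0.1), 19.2%, against 38.4% of all tested isoforms). They came from 4 loci, XLOC_004115, XLOC_004394, XLOC_004735 and XLOC_010956, and all 4 also fell by counts. In the other direction, 9 loci called by counts had a tested isoform, and only these 4 of them had one called. At XLOC_004394 (uc007jdh.1, chromosome 11) both the reference form and an assembled form fell, with an FPKM of 2.50 ± 0.585 with IL-4 and 3.73 ± 0.427 in untreated cells for the reference form and 0.702 ± 0.153 with IL-4 and 1.24 ± 0.137 in untreated cells for the other. At XLOC_010956 the single-exon reference form had 0.741 ± 0.0948 FPKM with IL-4 and 1.46 ± 0.191 FPKM in untreated cells, a change of -0.89 on that scale (limma, adjusted p = 0.003317). XLOC_019903, which rose by counts, had an assembled single-exon form at 1.04 ± 0.231 FPKM with IL-4 and 1.34 ± 0.110 FPKM in untreated cells, a change of -0.36 on that scale (limma, adjusted p = 0.1558). Under the count filter, 2 loci had an FPKM of at least 1, XLOC_011066 on chromosome 17 and XLOC_027610 on chromosome 8, which share 79.1% and 86.2% of their exonic nt with another locus. XLOC_011066 had 9.61 ± 1.52 FPKM with IL-4 and 9.20 ± 2.93 FPKM in untreated cells beside 1 count with IL-4 and 0 in untreated cells. The count of called isoforms was 2 without untreated replicate 2 or 4 and 3 without untreated replicate 3.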

How the data were processed

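Libraries were made from DNase-treated total RNA depleted of ribosomal RNA, by the TruSeq RNA procedure, per the labels' protocols. Whole-number read counts per merged locus were deposited by the authors, as were FPKM values per isoform and a merged annotation. The submitters' processing notes list HTSeq, Cufflinks 2.1.1, TopHat2 2.0.9, CASAVA 1.8.2 and build mm9, with no settings. The annotation file has the form that Cufflinks' merging step writes. All value columns matched a library, so 0 were left out.

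Members, lists and comparisons were chosen with earlier results of these data known. Counts of all 31020 loci entered 1 edgeR fit (edgeR 4.0.16, R 4.3.3, TMM factors, default expression filter, quasi-likelihood test, two-sided, 8 libraries, no covariate), and adjusted p is Benjamini-Hochberg over the 13761 tested loci. The SE of a log2 fold change came from the F value. The log2 ratio of a pair, with 0.5 counts added to each, was tested with limma 3.58.1 over 633 divergent pairs with at least 1 coding locus, with a variance trend on the lower count. Isoform FPKM was tested with limma on log2(FPKM + 0.1) where at least 4 libraries reached 1, and changes on that scale understate those of low isoforms. The depth behind an FPKM is unknown. A group with 0 counts allows 3, and this floor, like the counts themselves, covers counting error only. Alternatives were DESeq2 1.42.0, other scalings, filters, pseudocounts, distances and libraries left out. Same-numbered libraries of the groups deviated together from their group means (correlations of 0.39, 0.15, 0.23 and 0.18), so the replicate number was also tried as a block. No 2 libraries of a group agreed within counting noise. Each test was checked on simulated data.

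Named loci are the 10 largest called rises and falls, the 5 most abundant loci and the 5 called pairs with the largest change of ratio in each direction.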

Additional observations from a re-analysis of the deposited data

Results flagged for a closer look

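In 56 groups of 4 libraries checked, those of the 28 named loci, 3 had a library far from the others. Chance alone flags about 1 in 20 such groups. XLOC_019308, the most abundant divergent non-coding locus, had 8356 CPM in IL-4 replicate 1, far above the other 3 IL-4 libraries. XLOC_005817, with the largest fall, had 3.79 CPM in untreated replicate 1, below the other untreated libraries and still above every IL-4 library. XLOC_026486, whose partner rose most, had 0.928 CPM in untreated replicate 1, below the other untreated libraries. What set these libraries apart was not tested.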

How the results depend on the processing

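With RLE or upper-quartile factors, without a count filter, with DESeq2 and without composite loci, the counts of called loci and pairs stayed within 1.5 times those reported. With the replicate block, 10 divergent non-coding loci were higher and 31 lower, 20 pairs moved the same way and 4 apart, 39 ratios and 5 isoforms were called, and beyond the loci and partners named with their blocked values it changed no call of a named locus. At 1 CPM in at least 4 libraries 5 loci were higher and 9 pairs moved the same way. Against a 1.5-fold change 3 were higher, 10 lower, 4 pairs moved the same way and 0 apart. With loci whose 5′ ends overlap the partner added, 46 were lower, 29 pairs moved the same way, 7 apart and 55 ratios were called. Without both replicate 4 libraries 22 ratios and 3 isoforms were called. Without a filter on FPKM 30 isoforms were called, and at FPKM of at least 5 none (0). Leaving out 1 library at a time gave 8 to 10 higher, 25 to 34 lower, 11 to 19 pairs moving the same way, 2 to 6 apart, 28 to 34 ratios and 2 to 5 isoforms.

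Signs turned only for values that were not called. Leaving out 1 library at a time, the log2 fold change of XLOC_014796 ran from -0.16 to 0.14 (0.14 without IL-4 replicate 2 or untreated replicate 1), the change of ratio of XLOC_018777 from -0.10 to 0.27 (below 0 without IL-4 replicate 3 or 4 or untreated replicate 1) and that of XLOC_019308 from -0.20 to 0.17 (above 0 without IL-4 replicate 4 or untreated replicate 2 or 3). Without both replicate 4 libraries the ratio of XLOC_018777 changed by -0.079 and that of XLOC_019308 by 0.17, and that of XLOC_018777 changed by -0.012 with 1 count added and by -0.22 with 5. Apart from the alternatives' own construction, the cause was not tested. Low counts limit these loci: 76 of 320 had no counts, the filter left out another 139 (244 were tested without it and 195 with DESeq2), and a locus with no call is not shown to be unchanged.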
